A study of Homo sapiens with 6 samples.

Results

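Lysosomal genes were followed in tumors that grew in mice from the human breast cancer line MDA-MB-231 and were either irradiated or left untreated. The set holds 39 genes of 60606 in the table, chosen by symbol from a list of lysosomal enzymes, membrane proteins and their regulator, and all 39 were found. They comprise 11 cathepsins, 10 glycosidases, 4 sulfatases, 5 lipid enzymes and lipid-binding proteins, 3 other soluble proteins (TPP1, PPT1 and GRN), 5 membrane proteins and the transcription factor TFEB. The tumors grew under the skin of NSG mice, which lack T, B and natural killer cells but keep macrophages, neutrophils, fibroblasts and vessels of their own, from unmodified cells of the line injected with Matrigel. The 3 irradiated tumors received a single local dose of 10 Gy of X-rays (6 MV beam, 6 Gy per minute) at about 800 mm3 and were collected 3 days later, and the 3 control tumors, also called untreated here, received no dose. Neither the age or sex of the mice nor the size and collection time of the control tumors is given in the labels, which also do not say that each tumor came from its own animal, so the spread behind each p-value is that of these samples and may be technical. Levels are TPM (a share of all transcripts, scaled for gene length), so they can be compared between genes, and the number of reads behind them is unknown. Fold changes are given as the irradiated mean less the control mean of log2(TPM + 1), and so come out too small for genes of low level.

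The lysosome is the acidic compartment in which cells break down proteins, sugar chains, lipids and nucleic acids delivered by endocytosis and autophagy. Its soluble hydrolases are made in the endoplasmic reticulum, tagged with mannose 6-phosphate and carried in by receptors, while a proton pump acidifies the lumen and heavily glycosylated membrane proteins such as LAMP1 line its wall. TFEB and its relatives TFE3 and MITF switch on many of these genes together by binding an element known as CLEAR, whose core is the palindrome CACGTG, and cathepsins that leave tumor cells can cut matrix proteins.

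The 250 bases before each gene start were searched for that core. RefSeq start sites (GRCh38.p14) were found for 29 of the 39 genes, with 36 windows, as some genes have several starts. CACGTG reads the same on both strands, so 1 search covers both, and it stood in 9 of the 36 windows (25%), each of another gene, against 6.34% of all 35116 windows in the table. The longer form, CACGTG with GT directly before it and AC directly after it, is also the same on both strands and stood in 3 of the 36 windows (8.33%), those of GAA, GALNS and MCOLN1, against 0.308% of all windows. LAMP1 had the most copies of CACGTG, 5. The windows of these 4 genes are printed 5′ to 3′ on the strand of the gene, with CACGTG in capitals, beside that of CTSZ, which has none and whose level rose in irradiated tumors.
GAA (chr17:80101331-80101580, plus strand): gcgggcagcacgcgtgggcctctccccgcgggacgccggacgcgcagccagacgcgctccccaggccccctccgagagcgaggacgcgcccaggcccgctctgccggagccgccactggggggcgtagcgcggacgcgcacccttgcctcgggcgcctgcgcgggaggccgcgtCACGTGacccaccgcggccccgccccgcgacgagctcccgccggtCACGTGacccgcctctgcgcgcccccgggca
GALNS (chr16:88856948-88857197, minus strand): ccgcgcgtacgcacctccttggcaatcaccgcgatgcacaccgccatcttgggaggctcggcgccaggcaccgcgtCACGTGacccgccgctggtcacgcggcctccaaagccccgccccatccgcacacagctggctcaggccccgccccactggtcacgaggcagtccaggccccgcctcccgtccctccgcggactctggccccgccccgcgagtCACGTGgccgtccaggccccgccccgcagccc
MCOLN1 (chr19:7522374-7522623, plus strand): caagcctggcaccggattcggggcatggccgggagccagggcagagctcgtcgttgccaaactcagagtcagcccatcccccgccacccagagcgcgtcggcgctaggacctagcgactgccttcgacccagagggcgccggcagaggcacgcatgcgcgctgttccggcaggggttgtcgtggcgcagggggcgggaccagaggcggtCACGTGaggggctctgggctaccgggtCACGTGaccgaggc
LAMP1 (chr13:113296989-113297238, plus strand): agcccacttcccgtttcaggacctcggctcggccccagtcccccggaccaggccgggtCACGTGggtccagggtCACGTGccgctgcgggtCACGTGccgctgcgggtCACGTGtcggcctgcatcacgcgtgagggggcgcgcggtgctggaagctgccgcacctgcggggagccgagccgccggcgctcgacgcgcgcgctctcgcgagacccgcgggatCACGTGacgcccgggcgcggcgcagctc
CTSZ (chr20:59007255-59007504, minus strand): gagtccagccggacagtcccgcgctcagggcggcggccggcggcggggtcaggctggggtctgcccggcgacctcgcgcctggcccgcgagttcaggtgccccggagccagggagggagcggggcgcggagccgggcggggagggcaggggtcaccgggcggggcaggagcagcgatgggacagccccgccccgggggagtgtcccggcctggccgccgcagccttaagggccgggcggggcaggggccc

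Most lysosomal genes had higher means in irradiated tumors, and the 3 that passed the test encode soluble proteins. Of the 39 genes, 38 had a mean of at least 1 TPM and were tested with limma across all 14140 such genes, and 31 of the 38 had a fold change above 0, as did 44.3% of all tested genes. At a Benjamini-Hochberg adjusted p of 0.05, 3 of the 38 rose and none fell, where 2.98% of all tested genes were called, 1.37% as risen and 1.61% as fallen. The 3 are GRN, a secreted and lysosomal growth factor precursor, the carboxypeptidase CTSZ and the galactosidase GLB1. At an unadjusted p of 0.05, 16 of the 38 were higher and none lower, where 8.93% of all tested genes were higher and 11.5% lower. These are levels in whole tumors, in which fewer cells of a type and less RNA per cell cannot be told apart. In 16 of the 38 all 3 irradiated tumors lay above all 3 control tumors, and in none did they lie below, where 26.6% of all tested genes were separated, 11.6% upward and 15% downward. The median fold change was 0.30 over the 38 genes and -0.056 over all genes tested. With medians of ratios as the scaling, 14 of the 38 were separated upward against 14.8% of all genes, and with any one tumor left out it was 16 to 23, with up to 2 separated downward. Separation is easier with fewer tumors, and the shares of all genes in those settings were 14.4% to 19.3% upward and 17% to 31.4% downward.

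**Figure D1:**
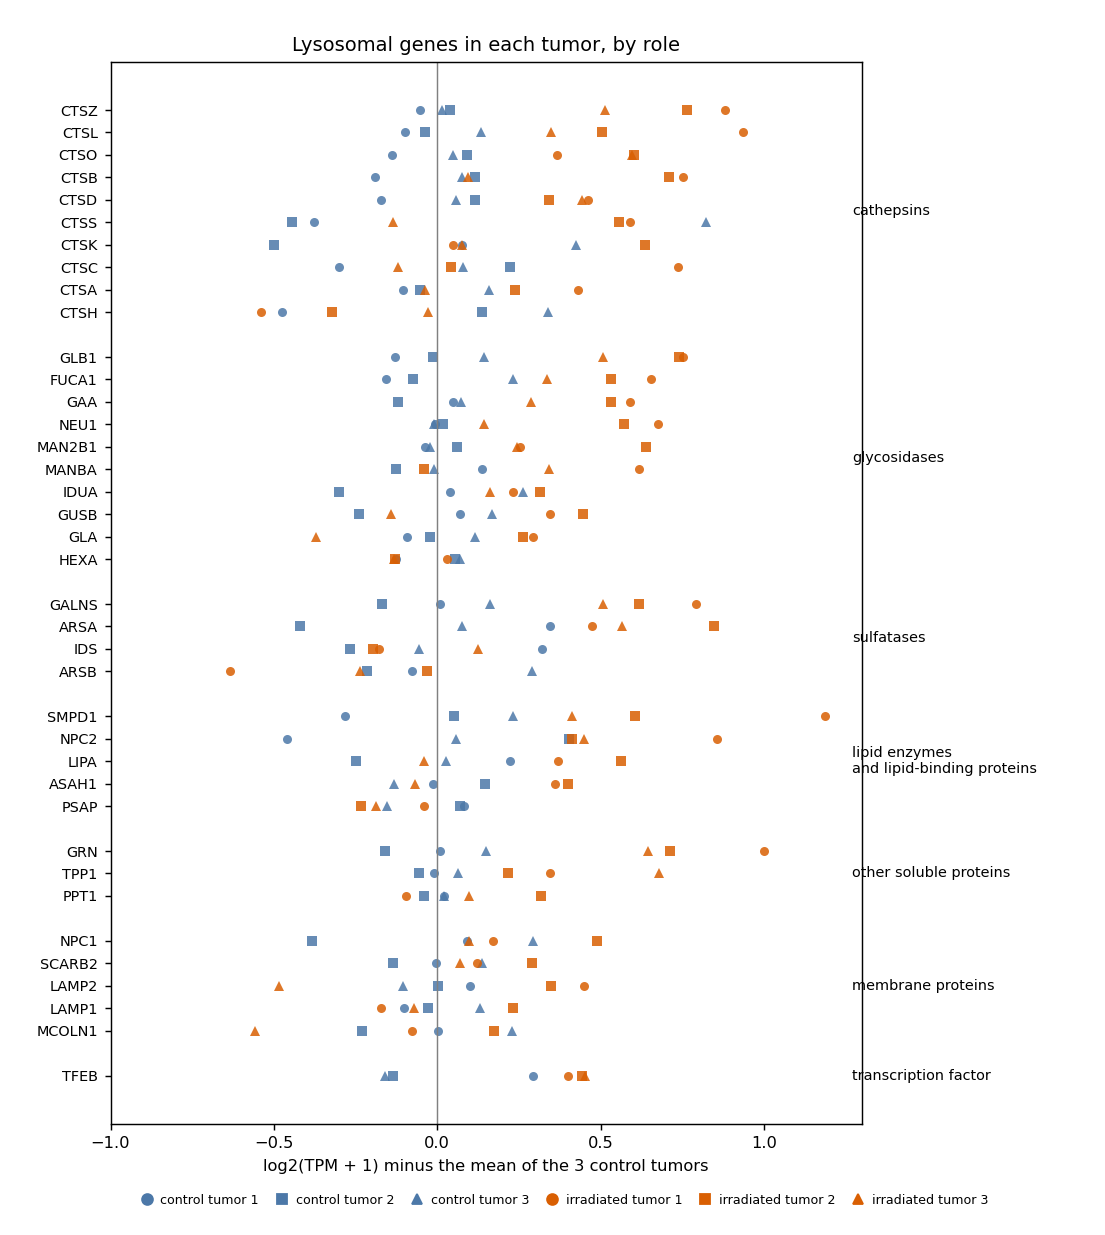
Level of each tested lysosomal gene in each tumor, as log2(TPM + 1) minus the mean of the 3 control tumors (horizontal axis), with 1 row per gene grouped by role; blue points are control and orange points irradiated tumors. Orange points lie to the right of all blue ones in 16 rows, among them CTSZ, GLB1 and GRN, and mix with the blue ones in every row of the membrane proteins.

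Summed over the 39 genes, lysosomal transcripts made up 0.450%, 0.472% and 0.457% of all TPM in control tumors 1, 2 and 3, and 0.604%, 0.536% and 0.497% in irradiated tumors 1, 2 and 3. The groups did not overlap in this share. PSAP, the precursor of the saposins that help hydrolases reach their lipids, was by far the most abundant member. Like 6 other tested members, it had a fold change below 0. It stood at 1924, 1911 and 1637 TPM in untreated tumors and 1767, 1546 and 1596 TPM after irradiation (log2 fold change -0.15, limma adjusted p = 0.510). Without PSAP the other 38 genes summed to 2571, 2806 and 2921 TPM in untreated tumors and 4228, 3777 and 3349 TPM after irradiation.

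Cathepsins, the proteases of the lysosome, rose in 1 case of 10 tested, and 4 of the 10 were separated upward, with a median fold change of 0.38. Among all tested genes, 1.37% rose and 11.6% were separated upward. CTSZ, a cysteine carboxypeptidase on chromosome 20 (58995185 to 59007247, GRCh38), was at 231, 246 and 242 TPM in control tumors 1, 2 and 3 and at 442, 408 and 343 TPM in irradiated ones, in the same order. The irradiated tumors were thus all above the controls, which lay close together. The mean went from 239.8 ± 7.94 to 397.7 ± 50.4 TPM (SD, n = 3), a log2 fold change of 0.72 (95% interval 0.42 to 1.02, limma adjusted p = 0.0304). With 1 tumor left out, CTSZ passed in the fits that lacked control tumor 2 or irradiated tumor 3 and missed the threshold in the other 4 (adjusted p up to 0.132).

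The endopeptidase CTSL was at 125, 130.05 and 146 TPM in untreated tumors and 256, 189.7 and 170.0 TPM after irradiation, with no overlap (log2 fold change 0.60, limma adjusted p = 0.103). CTSD, the main aspartic protease of the lysosome and the most abundant cathepsin by its mean over all 6 tumors, though below CTSZ in irradiated tumors 1 and 2, was at 253, 309 and 297 TPM against 393, 362 and 388 TPM, again without overlap (0.42, adjusted p = 0.116). CTSO, a cysteine protease of low level, was at 4.78, 5.77 and 5.58 TPM against 7.21, 8.66 and 8.62 TPM, without overlap (0.52, adjusted p = 0.157). These 3 did not pass the test across all genes.

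CTSB, an endopeptidase that also trims dipeptides, was at 155, 192 and 186 TPM in untreated tumors and 298, 289.7 and 189 TPM after irradiation (log2 fold change 0.52, limma adjusted p = 0.184). Irradiated tumor 3 lay within the range of the controls and the other 2 well above it. The protective protein CTSA, which holds GLB1 and NEU1 in a complex, had a fold change of 0.21 and CTSC, which activates serine proteases, 0.22, and both overlapped. CTSH, an aminopeptidase, was the only tested cathepsin below 0, with 8.18, 13.0 and 15.2 TPM in untreated tumors and 7.79, 9.22 and 11.5 TPM after irradiation (-0.30, adjusted p = 0.539). CTSK and CTSS, which are abundant in osteoclasts and in antigen-presenting cells, were low, at 0.51 to 1.87 and 1.77 to 5.66 TPM in untreated tumors and 1.21 to 2.32 and 2.43 to 4.67 TPM after irradiation. CTSF was listed at 0 in all but control tumor 2, where it was at 0.2 TPM, and was not tested.

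**Figure D2:**
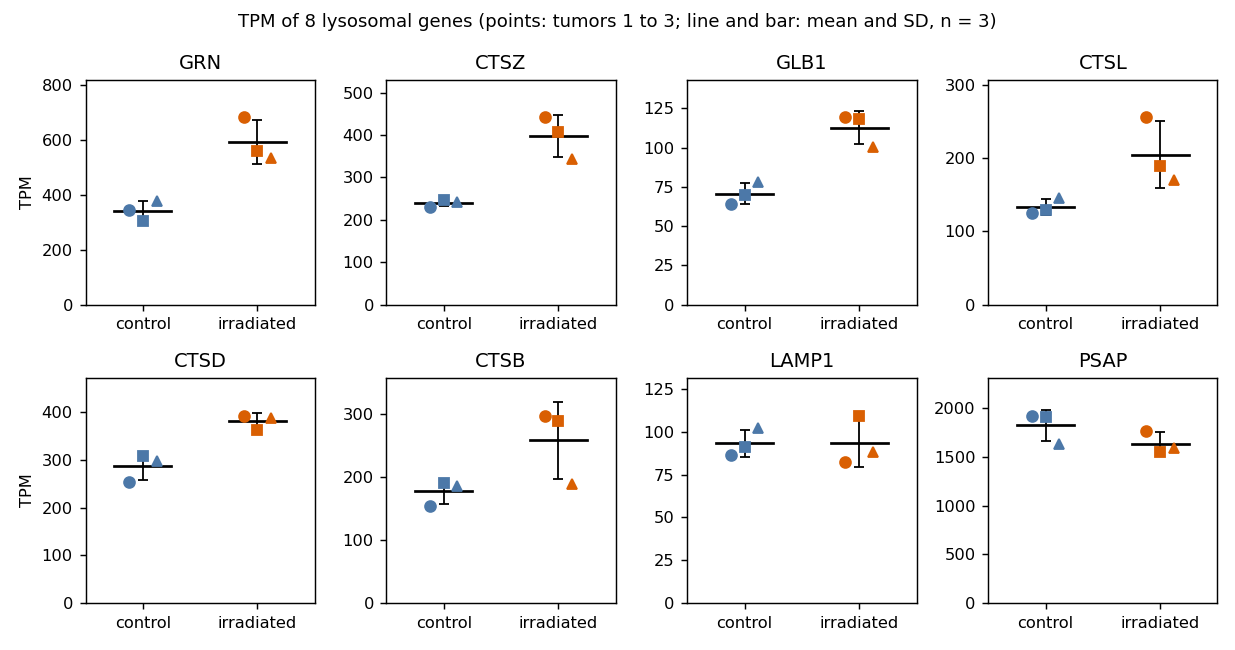
TPM (vertical axes, from 0) of 8 lysosomal genes in control and irradiated tumors; points are tumors, and lines with bars are means and SD (n = 3). GRN, CTSZ, GLB1, CTSL and CTSD show irradiated tumors above all controls, CTSB shows irradiated tumor 3 among the controls, and LAMP1 and PSAP show groups that overlap.

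Glycosidases, which strip sugars from glycoproteins, glycolipids and glycosaminoglycans, rose in 1 case of 10, and 5 of the 10 were separated upward, with a median fold change of 0.34. The shares of all tested genes were 1.37% risen and 11.6% separated upward. GLB1, the beta-galactosidase that removes galactose from gangliosides and keratan sulfate and is stained as a marker of senescent cells, was at 64.4, 69.85 and 77.9 TPM in untreated tumors and 119, 118 and 101 TPM after irradiation. All irradiated tumors lay above the controls. This is a log2 fold change of 0.67 (95% interval 0.35 to 0.985, adjusted p = 0.0452 in limma), a call that was lost without any one tumor (adjusted p 0.0569 to 0.18), with medians of ratios (0.0541) and without a filter on low values (0.131). GLB1 lies on chromosome 3 (32996608 to 33097230) and shares exon sequence with TMPPE, which was low, at 2.23 ± 0.606 TPM without irradiation and 1.91 ± 0.595 TPM after irradiation (SD, n = 3).

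NEU1, the sialidase that works beside GLB1, was at 26.3, 26.8 and 26.3 TPM in untreated tumors and 42.9, 39.8 and 29.3 TPM after irradiation (log2 fold change 0.46, limma adjusted p = 0.178). GAA, which degrades glycogen in the lysosome and carries 2 copies of the longer CLEAR form in the window printed above, was at 44.1, 39.2 and 44.9 TPM against 64.7, 62.2 and 52.3 TPM (0.47, adjusted p = 0.120). The fucosidase FUCA1 was at 8.06, 8.58 and 10.8 TPM against 14.9, 13.6 and 11.8 TPM (0.51, adjusted p = 0.170). In these 3 genes and in the mannosidase MAN2B1 the groups did not overlap, at 47.4, 50.8 and 47.9 TPM against 58.2, 76.3 and 57.8 TPM for MAN2B1 (0.38, adjusted p = 0.209).

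The other glycosidases overlapped between the groups. HEXA, the alpha subunit of hexosaminidase and the most abundant glycosidase by its mean over all 6 tumors, though below GLB1 in each irradiated tumor, was at 90.2, 102 and 103 TPM in untreated tumors and 100.5, 90.0 and 89.8 TPM after irradiation (log2 fold change -0.077, limma adjusted p = 0.772). The galactosidase GLA, the iduronidase IDUA, the mannosidase MANBA and the glucuronidase GUSB had fold changes of 0.061, 0.24, 0.31 and 0.22. GUSB has several pseudogenes, of which the most abundant, GUSBP1, had a mean of 3.85 TPM over the 6 tumors against 68.9 TPM for GUSB, and how reads were split between them is unknown.

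Sulfatases, which remove sulfate from glycosaminoglycans and sulfatides, went 2 ways and none of the 4 passed the test. In 2 of the 4 the groups were separated upward and in none downward. Of all tested genes, 2.98% were called, 11.6% were separated upward and 15% downward. GALNS, which acts on keratan and chondroitin sulfate, was at 12.2, 10.7 and 13.7 TPM in untreated tumors and 21.8, 19.2 and 17.7 TPM after irradiation, without overlap (log2 fold change 0.64, limma adjusted p = 0.0855, and 0.0492 with quantile normalization). ARSA, which acts on sulfatide, was at 5.15, 2.62 and 4.1 TPM against 5.72, 7.72 and 6.16 TPM, without overlap (0.63, adjusted p = 0.203). ARSB, at 5.45, 4.86 and 7.32 TPM against 3.38, 5.66 and 4.77 TPM, had the lowest fold change of all tested members (-0.30, adjusted p = 0.510). IDS, the most abundant of the sulfatases, was at 98.2, 65.0 and 75.5 TPM against 69.2, 68.3 and 85.6 TPM, and its groups overlapped (-0.083, adjusted p = 0.835).

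Among lipid enzymes and lipid-binding proteins, 0 of 5 passed the test and 2 were separated upward, against 2.98% and 11.6% of all tested genes. SMPD1, the acid sphingomyelinase that makes ceramide, was at 14.6, 18.7 and 21.3 TPM in untreated tumors and 42.3, 27.9 and 24.3 TPM after irradiation (log2 fold change 0.74, limma adjusted p = 0.131). NPC2, which hands cholesterol to the membrane protein NPC1, was at 206, 376 and 296 TPM against 515, 379 and 389 TPM (0.57, adjusted p = 0.203), so that control tumor 2 and irradiated tumor 2 nearly touched. The acid lipase LIPA and the acid ceramidase ASAH1 had fold changes of 0.30 and 0.23 with groups that overlapped.

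GRN, which encodes progranulin and lies on chromosome 17 (44345086 to 44353102), had the largest fold change of the 38 tested genes. It was at 343, 305 and 378 TPM in control tumors 1, 2 and 3 and at 683, 559 and 534 TPM in irradiated ones, in the same order, so the lowest irradiated tumor stood well above the highest control. The mean went from 342.2 ± 36.6 to 591.9 ± 79.6 TPM (SD, n = 3), a log2 fold change of 0.79 (95% interval 0.46 to 1.12, limma adjusted p = 0.0303). With 1 tumor left out, GRN passed in the fit that lacked control tumor 2 and missed the threshold in the other 5 (adjusted p up to 0.13). PPT1, a thioesterase that removes palmitate from proteins, overlapped between the groups, with a fold change of 0.11. All 3 calls, of GRN, CTSZ and GLB1, were lost without the trend in the limma fit (adjusted p 0.0773, 0.0799 and 0.0931).

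TPP1, a tripeptidyl peptidase, depends on how its locus is counted. The TPP1 row was at 38.9, 37.6 and 40.9 TPM in untreated tumors and 49.95, 45.6 and 63.1 TPM after irradiation, without overlap (log2 fold change 0.41, limma adjusted p = 0.188). A second row, ENSG00000285338, is annotated as a processed transcript on the same strand of chromosome 11 (6610883 to 6616594) and shares exons with TPP1 and with its neighbour TAF10, a subunit of the general transcription factor TFIID. That row was at 0.39, 0.15 and 0.12 TPM in untreated tumors and at 43.8, 37.5 and 47.2 TPM after irradiation (5.17, adjusted p = 7.76e-06).

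Adding that row to TPP1 gave 39.3 ± 1.66 TPM without irradiation and 95.7 ± 13.7 TPM after irradiation (SD, n = 3), and TPP1 passed the test in that setting, which was chosen after seeing the data (log2 fold change 1.25, limma adjusted p = 0.005). TAF10 itself was at 139 ± 21.8 TPM without irradiation and 91.6 ± 17.3 TPM after irradiation (-0.60, adjusted p = 0.123), and TAF10 plus that row was at 139 ± 21.7 and 134 ± 22.1 TPM. All 3 rows together summed to 154, 184 and 197 TPM in untreated tumors and 194, 155 and 214 TPM after irradiation, which overlap. Which of the genes the reads of the shared row came from cannot be told apart from TPM. The groups also differed in the total of the TPM columns, which fell short of the full total by 0.143% to 0.198% in control and by 0.523% to 0.774% in irradiated tumors. Whether all tumors were quantified in the same way was not tested. A difference between the groups would limit every fold change and call given here, among them those of the shared row and of the TPP1 sum. The sums join rows of different length.

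**Figure D3:**
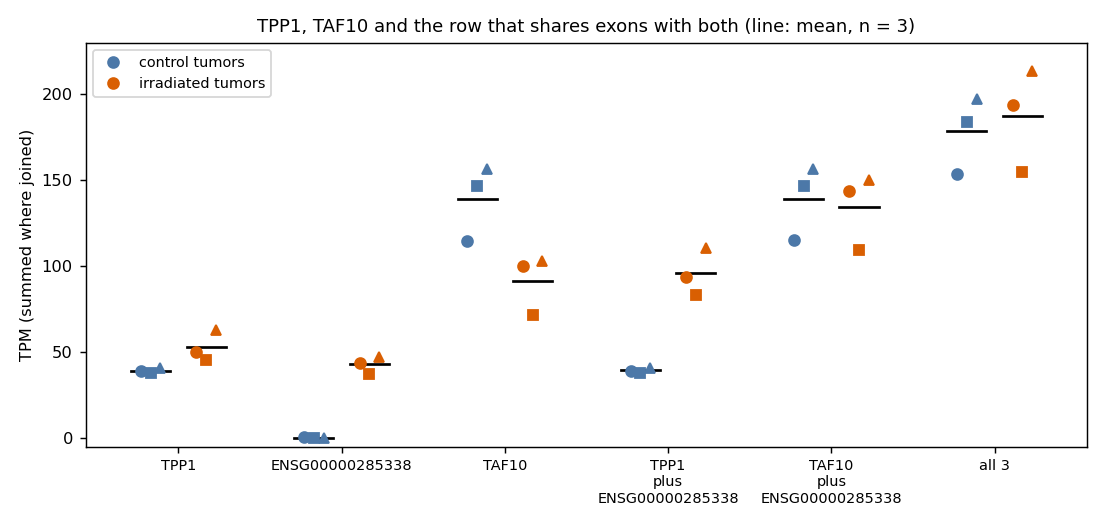
TPM of TPP1, of TAF10 and of the row ENSG00000285338 that shares exons with both, alone and summed (horizontal axis), in control (blue) and irradiated (orange) tumors; lines are means (n = 3). The shared row is near 0 in controls and between 37.5 and 47.2 TPM after irradiation, and the sum of all 3 rows overlaps between the groups.

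The membrane proteins did not differ detectably between the groups. In limma, 0 of 5 passed at an adjusted p or an unadjusted p of 0.05. Of all tested genes, 2.98% passed at the adjusted p, and 8.93% were higher and 11.5% lower at the unadjusted p. The groups were separated in 26.6% of all tested genes, and with only 5 members 0 is near these shares. LAMP1, a main glycoprotein of the lysosomal wall, was at 86.8, 91.3 and 102 TPM in untreated tumors and 82.5, 109.6 and 88.6 TPM after irradiation (log2 fold change -0.0043, 95% interval -0.35 to 0.34, adjusted p = 0.992), and its fold change turned to small positive values, up to 0.080, under other scalings and without some tumors. LAMP2, a related glycoprotein with an isoform that serves as the receptor of chaperone-mediated autophagy, was at 46.7, 43.6 and 40.4 TPM against 59.7, 55.7 and 30.8 TPM, with irradiated tumor 3 below all controls (0.10). The cholesterol transporter NPC1, the sorting receptor SCARB2 and the calcium channel MCOLN1 had fold changes of 0.25, 0.16 and -0.15, and all 5 membrane proteins overlapped. Their median was 0.10, and -0.018 without irradiated tumor 2 and -0.057 with control tumor 2 and irradiated tumor 2 both left out. The upper ends of their 95% intervals run from 0.34 for LAMP1 to 0.73 for NPC1, and the lowest lower end is -0.66, for MCOLN1.

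The ratio of summed cathepsins and glycosidases to summed membrane proteins was 6.50, 7.78 and 6.86 in untreated tumors and 10.3, 7.85 and 9.12 in irradiated tumors. The groups did not overlap in this ratio, though control tumor 2 and irradiated tumor 2 were close. The ratio leaves out the other soluble members, among them the lipid enzymes and lipid-binding proteins with PSAP. That group summed to 2036 to 2384 TPM in untreated tumors and 2073 to 2434 TPM in irradiated tumors, which overlap. The separation thus depends on which soluble genes are summed. No test of the difference between the role groups was made.

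TFEB was low in every tumor, at 4.64, 3.19 and 3.12 TPM in untreated tumors and 5.07, 5.25 and 5.29 TPM after irradiation. The irradiated tumors were all above the controls and close together, and the log2 fold change of 0.43 (95% interval -0.050 to 0.91) did not pass (limma adjusted p = 0.289). Its relative TFE3 was more abundant, at 23.7 ± 1.98 TPM without irradiation and 27.0 ± 5.16 TPM after irradiation (SD, n = 3, 0.17, adjusted p = 0.625), and MITF was at 3.42 ± 0.541 and 3.85 ± 0.678 TPM (0.13, adjusted p = 0.769).

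The 8 tested genes with the palindrome had a median of 0.31, with 4 of 8 separated upward and none that rose. The 20 without it had a median of 0.34, with 10 of 20 separated upward and 3 that rose. Of all tested genes, 11.6% were separated upward and 1.37% rose. GAA and GALNS, which carry the longer form, had fold changes of 0.47 and 0.64, while MCOLN1, which also carries it, was at -0.15 and LAMP1, with 5 copies of the core, at -0.0043. The windows of GRN, CTSZ and GLB1, the called genes, held no CACGTG, which says only that these letters are not in the 250 bases searched. By the GENCODE models, 216 of the 250 bases of the GRN window and 75 of that of GLB1 lie in exons of the gene itself, so these windows cover less of the sequence before the start.

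**Figure D4:**
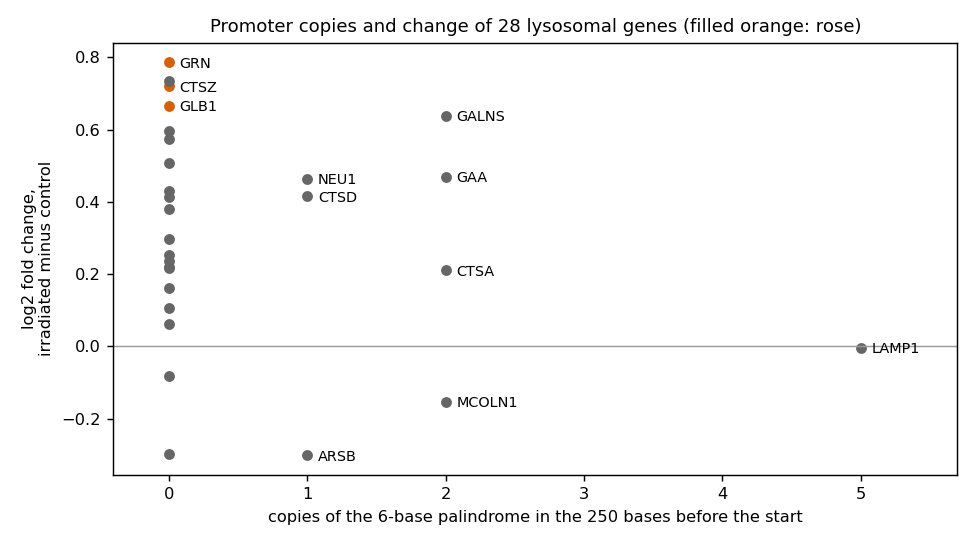
Copies of CACGTG in the 250 bases before the gene start (horizontal axis) against the log2 fold change, irradiated minus control (vertical axis), of the tested lysosomal genes with a RefSeq start; orange points rose. Genes without a copy span -0.30 to 0.79, and LAMP1, with 5 copies, lies at -0.0043.

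Other lysosomal genes, taken from lists by function, held more genes separated upward than downward among hydrolases, membrane proteins and subunits of the proton pump. These lists were chosen with earlier results of these data known. They were read in the same 6 tumors, so they are no independent test. Of 33 tested further soluble hydrolases, 1 rose, none fell and 15 were separated upward, with a median fold change of 0.30. Of all tested genes, 1.37% rose, 11.6% were separated upward and 15% downward. PRCP, a prolyl carboxypeptidase, rose from 38.6 ± 6.15 to 69.6 ± 5.89 TPM (SD, n = 3, log2 fold change 0.84, limma adjusted p = 0.0337), a call kept in 1 of the 6 fits that leave out a tumor (adjusted p up to 0.152). CTSV, a close relative of CTSL, was at 0.45, 0.74 and 0.68 TPM in untreated tumors and 2.38, 2.29 and 3.17 TPM after irradiation (1.15, adjusted p = 0.0504). The asparaginyl protease LGMN was at 40.7, 40.4 and 53.3 TPM against 96.1, 75.9 and 59.1 TPM (0.75, adjusted p = 0.0911).

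Of 31 further membrane proteins, 1 rose, none fell, 8 were separated upward and 1 downward, with a median of 0.26. The shares of all tested genes were 1.37% risen, 11.6% separated upward and 15% separated downward. PLD3, an exonuclease of endosomes and lysosomes anchored in their membrane, rose from 83.0, 87.1 and 84.1 TPM to 179, 163 and 152 TPM (0.95 on the log2 scale, adjusted p = 0.00845 in limma). PLD3 passed in all 6 fits that leave out a tumor (adjusted p up to 0.0499). With control tumor 2 and irradiated tumor 2 both left out it did not (0.0831). TMEM175, a lysosomal potassium and proton channel, was at 7.43, 3.75 and 7.81 TPM against 12.4, 9.38 and 12.1 TPM, without overlap (0.79, adjusted p = 0.148). CD63, a tetraspanin of late endosomes, was the most abundant, at 911 ± 72.8 TPM without irradiation and 1124 ± 96.1 TPM after irradiation (SD, n = 3), without overlap (0.30, adjusted p = 0.222).

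The other lists had medians near that of all genes or few members. The 19 tested V-ATPase subunits, which form the proton pump, had a median of 0.069. Of these, 0 passed, 5 were separated upward and 0 downward. The smallest p were those of ATP6AP1 (0.48, limma adjusted p = 0.0832) and ATP6V1F (0.39, 0.132). The 23 tested genes of delivery to lysosomes had a median of -0.0046 and 0 calls, with 2 separated upward and 2 downward. Of all tested genes, 2.98% were called, 11.6% were separated upward and 15% downward. IGF2R, the large mannose 6-phosphate receptor, was at 39.8 ± 5.84 and 68.7 ± 9.46 TPM (SD, n = 3, 0.77, adjusted p = 0.0520), while the small receptor M6PR was at 94.2 ± 20.5 and 75.3 ± 10.5 TPM (-0.30, adjusted p = 0.418). GNPTG, a subunit of the enzyme that makes the tag, had a fold change of 0.68 (adjusted p = 0.0752).

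Of 22 tested regulators of TFEB and lysosomal genes, 1 fell and none rose, with a median of -0.047. Of the 22, 6 were separated downward and 2 upward. Among all tested genes, 1.61% fell, 1.37% rose, 15% were separated downward and 11.6% upward. RRAGB, a Rag GTPase that brings mTORC1 to the lysosome, fell from 14.5, 14.7 and 33.3 TPM in untreated tumors to 6.98, 3.96 and 3.98 TPM after irradiation (log2 fold change -1.80, limma adjusted p = 0.0347). That call was kept in 1 of the 6 fits that leave out a tumor (adjusted p up to 0.143). Its relative RRAGD was at 8.66 ± 1.05 and 5.40 ± 0.996 TPM (SD, n = 3, -0.60, adjusted p = 0.140). Cystatins, the inhibitors of cysteine cathepsins, had 0 calls of 5 tested, where 2.98% of all tested genes were called. The main secreted one, CST3, was at 340, 552 and 453 TPM in untreated tumors and 814, 646 and 907 TPM after irradiation. It was the only 1 of the 5 whose groups did not overlap (0.83, limma adjusted p = 0.0719). CSTB, the main intracellular one, was at 415, 351 and 347 TPM against 515, 412 and 451 TPM (0.31, adjusted p = 0.251).

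**Figure D5:**
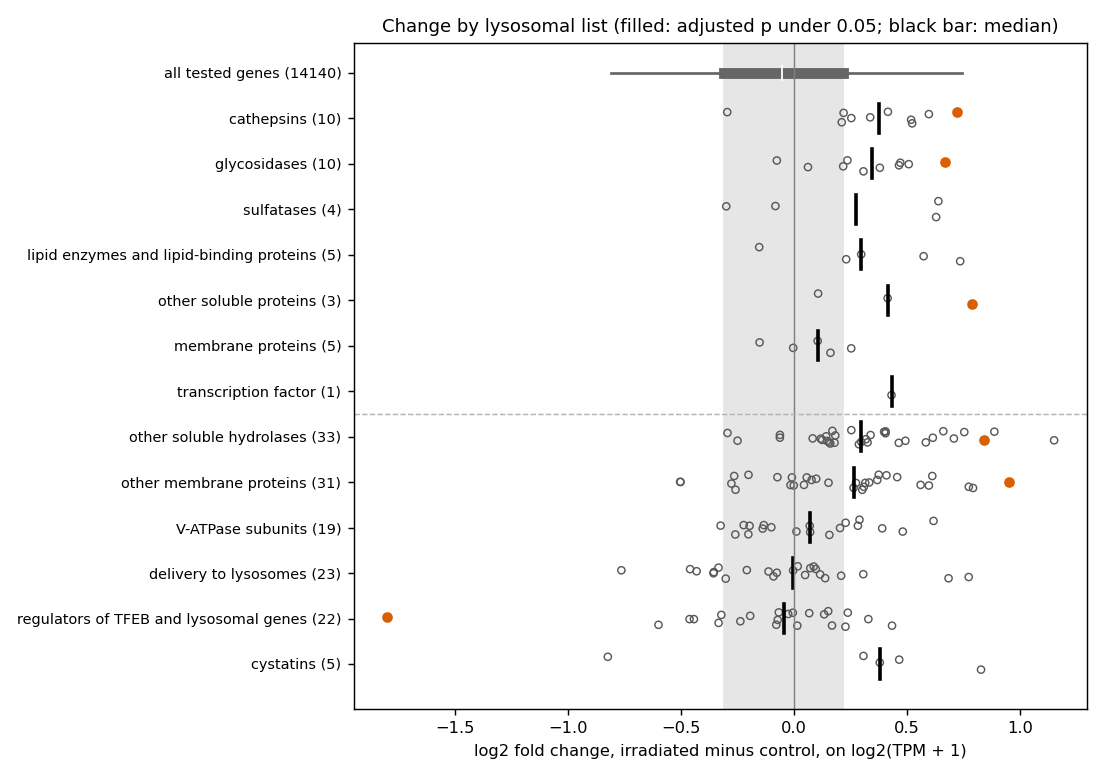
Log2 fold change, irradiated minus control on log2(TPM + 1) (horizontal axis), of each tested lysosomal gene by role above the dashed line and of further lysosomal lists below it, with the number tested in brackets; filled points passed an adjusted p of 0.05, black bars are medians, and the top line spans the 5th to 95th percentile of all 14140 tested genes with the middle 50% as a thick bar. Medians of cathepsins (0.38) and glycosidases (0.34) lie above those of the 5 membrane proteins (0.10), the proton pump (0.069) and delivery genes (-0.0046). The 31 further membrane proteins have a median of 0.26 and include PLD3, which passed.

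The members also varied between tumors of 1 group. Among irradiated tumors, tumor 3 was the lowest in 24 of the 38 tested genes and the highest in 4, and tumor 1 was the highest in 20. Among control tumors, tumor 3 was the highest in 22 of 38 and the lowest in 5. The median deviation of the 10 tested cathepsins from the control mean was 0.53 and 0.53 in irradiated tumors 1 and 2 and 0.084 in irradiated tumor 3, against 0.11 in control tumor 3, on the log2(TPM + 1) scale. Across the 38 genes, level and fold change were nearly unrelated (Pearson r = 0.085, Spearman rho = 0.062), a description over genes that share the same 6 tumors.

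Other cells of the tumors can add lysosomal transcripts, so marker genes were read beside them. Markers of the line itself were present in each tumor, with VIM at 3148 to 5283 TPM and CD44 at 158 to 267 TPM, and EPCAM was low, at 2.9 to 5.1 TPM. Of 17 macrophage markers, 5 (TYROBP, C1QA, C1QB, C1QC and MARCO) were listed at 0 in every tumor and PTPRC stayed at 0.04 to 0.3 TPM. Higher were SPI1 at 3.04 to 22.01 TPM, CSF1R at 2.95 to 9.12 TPM and ITGAX at 2.03 to 5.96 TPM. Of the 6 tested, 4 had fold changes below 0 and 2, CD68 and ITGAX, above 0. Their median was -0.27, and the groups overlapped in all 6. The macrophage list summed to 93.9 to 129.7 TPM without irradiation and 106.6 to 208 TPM after irradiation, of which CD68, itself a lysosomal membrane glycoprotein, made up 74.9 to 94.2 and 91.2 to 187 TPM. Markers of neutrophils, osteoclasts, dendritic cells and fat cells summed to at most 2.89 TPM per list in any tumor.

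Fibroblast markers summed to 481 to 1009 TPM without irradiation and 135 to 222 TPM after irradiation. Muscle markers summed to 148 to 415 TPM without irradiation and 1.54, 105 and 2.24 TPM in irradiated tumors 1, 2 and 3. Of 8 tested fibroblast markers, 3 fell (COL1A1, COL1A2 and COL3A1) and 5 were separated downward. Of 12 tested muscle markers, 3 fell (MYH1, MYH4 and CASQ1) and 10 were separated downward. Among all tested genes, 1.61% fell and 15% were separated downward. The fibroblast sum is mostly COL1A1 and COL1A2, and 2 of its 8 tested markers had fold changes above 0, PDGFRB (3.51 ± 1.42 to 8.09 ± 4.34 TPM) and COL6A3 (1.64 ± 0.448 to 7.78 ± 7.54 TPM, SD, n = 3), both with groups that overlapped. Endothelial markers summed to 32 to 44.1 and 45.4 to 66.1 TPM. The markers of the line summed to 5181 to 6716 TPM without irradiation and 4296 to 5315 TPM after irradiation. Most of that sum is VIM, at 4646 ± 765 and 3353 ± 290.2 TPM, while KRT18 (487.6 ± 16.3 and 531.7 ± 164.5 TPM) and KRT8 (389 ± 59.6 and 456.4 ± 111 TPM, SD, n = 3) had higher means after irradiation. Fold changes were below 0 in 5 of the 7 line markers, and none of the 7 passed the test. VIM, CD44 (240.8 ± 23.6 and 177.1 ± 21.4 TPM) and AXL (178.3 ± 24.3 and 123.3 ± 14.95 TPM) were separated downward, as were 15% of all tested genes. Whether reads of the mouse host were removed is not given in the sources used here, and the part of these shifts in the lysosomal values was not tested. Ribosomal protein genes took 26.95% of all TPM in control tumor 2 and 19.8% to 22.3% in the other 5, and the number of genes at 1 TPM or more ran from 13392 to 14218.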

How the data were processed

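RNA from 3 control and 3 irradiated xenograft tumors was sequenced from total RNA with an Illumina TruSeq kit, per the labels' protocols. The authors deposited 1 table of TPM for 60606 genes, and all 6 columns were used. HISAT2, StringTie, RSEM and hg38 are named in the submitters' processing notes, without versions or order. The sources used here name neither the annotation release, nor use of strand, nor the treatment of reads from the mouse. TPM keeps no depth, so no counting interval can be given.

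The comparison used limma 3.58.1 (R 4.3.3, eBayes with trend, two-sided, Benjamini-Hochberg at 0.05) on log2(TPM + 1), with no covariate, for the 14140 genes whose mean over the 6 tumors reached 1 TPM. Adjusted p-values are limma's throughout and run over all genes tested. Members and lists were chosen with earlier results of these data known. Described in full are members that were called or whose groups did not overlap, the 3 highest and 3 lowest fold changes, the most abundant of each role, and TFEB. From other lists come called genes and the 2 smallest p. TFE3, MITF, M6PR, LGMN, CD63, CTSB, RRAGD and marker genes were added after their values were seen. Coordinates and exon overlap come from GENCODE 29 (GRCh38), which held 58396 of the identifiers, and promoter windows from RefSeq (GRCh38.p14). Windows with more than 30 bases of an exon of their own gene were not printed.

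Tested on simulated data for this comparison (14140 genes, 200 changed in each of 5 draws), the fit recovered 33.6% of changes by a factor of 2 and 78.2% by a factor of 4, with 4.59% false calls. Noise was drawn independently for each gene and tumor, so these rates need not hold where genes vary together between tumors. Alternatives were other pseudocounts, filters, scalings and variance models, a replicate block, overlap-free genes and tumors left out. Summing rows that share exons with a member was added after seeing the data.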

Additional observations from a re-analysis of the deposited data

How the results depend on the processing

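The number of members that rose was 3, and 2 to 4 under other pseudocounts, filters and scalings, robust estimates, sample weights and summed overlapping rows. It was 0 without trend, 0 with a replicate block and 0 with control tumor 2 and irradiated tumor 2 both left out, and 0 to 2 with 1 tumor left out, where the test has fewer samples. No member fell in any setting. Rising cathepsins numbered 1, or 0 in those same 3 settings and 0 to 1 with a tumor left out. Rising glycosidases numbered 1, or 0 in those settings, without a filter, with medians of ratios, in genes without overlap (where GLB1 is not tested) and with any 1 tumor left out. Over all genes, 194 rose and 227 fell. With sample weights 426 rose and 638 fell, with quantile normalization 312 rose, without trend 142 fell, with a replicate block 88 rose and 97 fell, without the 2 second tumors 26 rose and 40 fell, and with 1 tumor left out 48 to 200 rose and 54 to 469 fell. Of other lysosomal genes, 2 rose and 1 fell. The rise was 4 with medians of ratios, robust estimates or overlap-free genes, 5 with quantile normalization or without mitochondrial and ribosomal genes, 9 with sample weights, 1 with a replicate block, 0 without the 2 second tumors and 1 to 4 with 1 tumor left out. The fall was 0 with a pseudocount of 5 TPM, without trend, with a replicate block and without the 2 second tumors, 2 with sample weights, and 0 to 2 with 1 tumor left out. The cause of these moves was not tested.

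Medians ranged from 0.278 to 0.506 for cathepsins and 0.280 to 0.421 for glycosidases over all settings. The median of membrane proteins was -0.057 without the 2 second tumors and at most 0.206, without irradiated tumor 3. LAMP1 (-0.137 without the 2 second tumors) turned to 0.054 with medians of ratios, 0.048 with quantile normalization, 0.037 without mitochondrial and ribosomal genes, 0.011 with sample weights, and 0.061, 0.080 and 0.030 without control tumor 3, irradiated tumor 1 and irradiated tumor 3, and IDS to 0.078 without control tumor 1 (lowest -0.216, without control tumor 2). Deviations of same-numbered tumors from their group means correlated over genes at -0.043, -0.046 and -0.059. The deviations are centered within groups of 3, so these values cannot exclude a tie between samples, and the labels give none. The replicate block left GRN, CTSZ and GLB1 at limma adjusted p 0.0666, 0.0768 and 0.121. The fit without a filter is unreliable for spread, since most rows are at 0. Low members such as CTSK, CTSF and TFEB are limited by the unknown depth.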

Other observations

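TPP1 was not the only member whose exons are shared with a second row on the same strand. The row ENSG00000250644 on chromosome 11 (1734821 to 1763954), which shares exons with CTSD and with its neighbour IFITM10, was at 6.87, 8.15 and 9.31 TPM in untreated tumors and 15.1, 16.4 and 24.99 TPM after irradiation (log2 fold change 1.10, limma adjusted p = 0.0433). Next to CTSD itself, whose lowest tumor was at 253 TPM, it is small. The row ENSG00000269242, which shares exons with MAN2B1, was at 7.38, 9.01 and 16.8 TPM against 16.5, 24.3 and 16.5 TPM (0.79, adjusted p = 0.182), and control tumor 3 overlapped the irradiated tumors. The row ENSG00000241489, which shares exons with IDS, was at 9.1, 5.41 and 9.08 TPM against 3.66, 3.88 and 5.54 TPM (-0.71, adjusted p = 0.165).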
